A study of Mus musculus with 9 samples.

Results

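The 34 genes described here encode soluble enzymes, membrane proteins and proton pump subunits of the lysosome, together with Tfeb, a transcription factor that switches on lysosomal genes. They were taken by symbol from a table of 38887 rows, and each symbol had 1 row. Of these genes 12 encode hydrolases, 3 soluble helper proteins, 9 membrane proteins and 9 subunits of the vacuolar ATPase (V-ATPase), with Tfeb as the only regulator. The RNA came from cultured mouse bone marrow-derived dendritic cells, antigen-presenting cells grown from marrow precursors. Of the 3 groups, each of 3 libraries, 1 was untreated and the others had 2 h or 6 h of lysophosphatidic acid (LPA), a lipid that signals through cell surface receptors. For mouse strain, genotype and age, LPA dose, vehicle and the hour at which untreated cells were harvested, the labels used here give no value. The labels do not say whether the 3 replicates came from separate mice or cultures, so the p-values describe the spread between these libraries only, which may be technical.

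The lysosome is the compartment in which endocytosed and autophagic cargo is broken down. The V-ATPase pumps protons into it, and the low pH activates cathepsins and glycosidases, while highly glycosylated membrane proteins line its wall and transporters carry the products out. Dendritic cells use the same compartment to cut antigens for presentation, with cathepsins and legumain trimming both antigen and the invariant chain of MHC class II. TFEB and its relatives MITF, TFE3 and TFEC bind E-boxes in the promoters of many lysosomal genes, in an arrangement known as the CLEAR element, and are held in the cytoplasm when mTORC1 is active.

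After 6 h of LPA, 15 of the 34 genes were higher than in untreated cells and 6 were lower. Scarb2, which encodes the membrane receptor that carries glucocerebrosidase to lysosomes, rose 2.30-fold, Atp6v0d2, an alternative d subunit of the proton pump, rose 1.499-fold, and Ctsl, encoding cathepsin L, rose 1.42-fold. After 2 h only 9 genes differed, 3 higher and 6 lower, and the largest difference was in Tfeb, whose level was 0.50 of the untreated level. Most other changes were small: the median absolute log2 fold change over the 34 genes was 0.06 at 2 h and 0.18 at 6 h, against 0.19 and 0.26 over all tested genes and 0.14 and 0.19 over tested genes at or above the level of the lowest member. Genes were called at a Benjamini-Hochberg adjusted p under 0.05 in edgeR's quasi-likelihood test over 14363 genes, and values are log2 fold changes ± SE. The comparisons of 2 h and 6 h share the untreated libraries, so their values are given side by side.

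The counts of members are read beside those of all tested genes. At 2 h 38.5% of all tested genes were called, 19.3% higher and 19.2% lower, and the members gave 26.5%, with 8.82% higher and 17.6% lower. At 6 h 52.0% of tested genes were called, 26.4% higher and 25.7% lower, and the members gave 61.8%, with 44.1% higher and 17.6% lower. The members are abundant transcripts, with at least 875 counts in every library, and abundant genes are called more often. Among the 5164 tested genes with a mean at or above that of the lowest member (33.4 CPM, counts scaled to the size of the library), 49.5% were called at 2 h (24.2% higher, 25.3% lower) and 61.8% at 6 h (30.4% higher, 31.4% lower). The share of members called at 6 h was thus the same as among genes at or above that level, with 15 higher to 6 lower among the members and a near-even split among those genes. The median log2 fold change of the members was 0.02 at 2 h and 0.09 at 6 h, beside -0.00 and 0.01 over all tested genes. These shares describe the list, which was not tested against other lists.

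**Figure D1:**
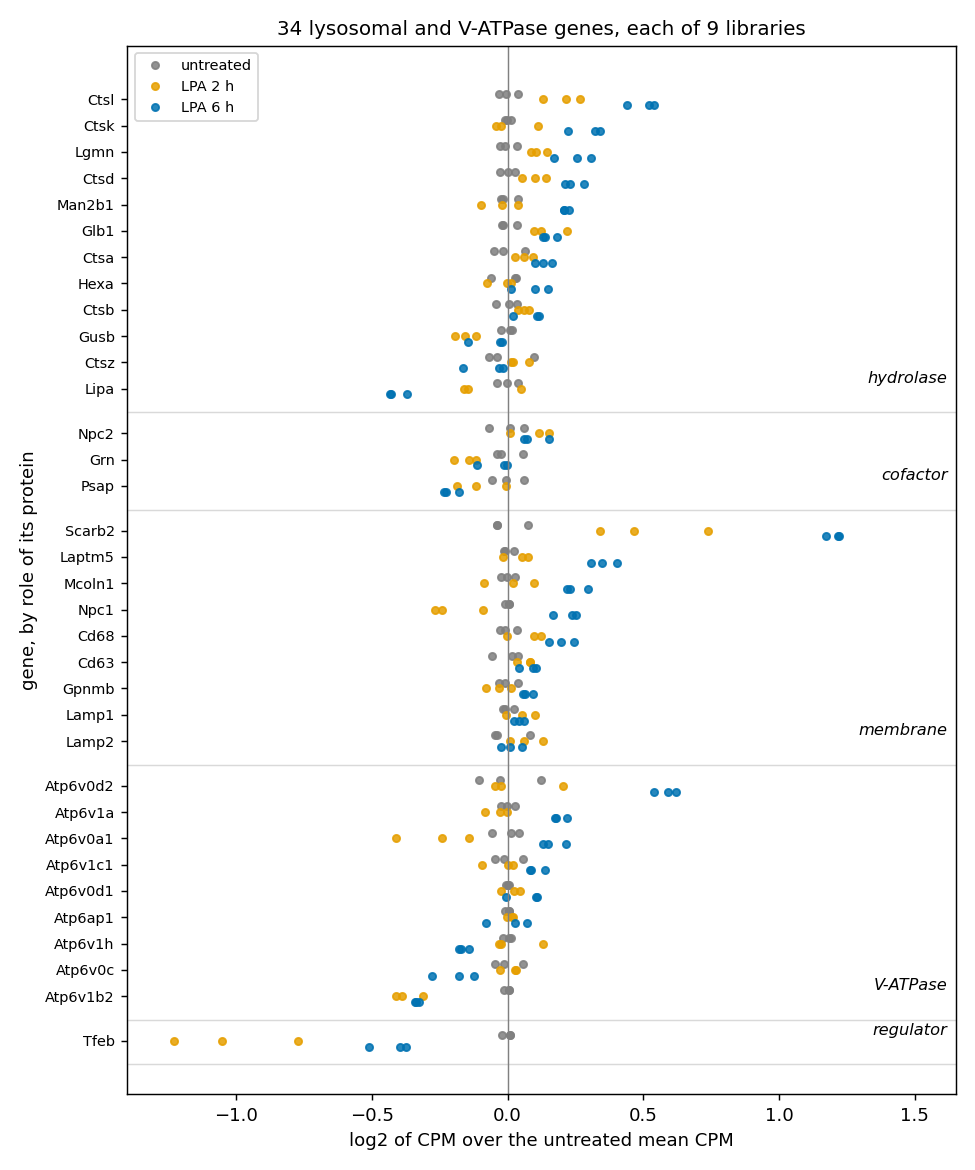
Each point is 1 library of 1 gene, placed by the log2 of its CPM over the mean CPM of the 3 untreated libraries; genes are grouped by the role of their protein, and colours mark untreated, LPA 2 h and LPA 6 h. Among the 6 h points those of Scarb2, Atp6v0d2 and Ctsl lie farthest to the right, and among the 2 h points those of Tfeb lie farthest to the left. Most genes stay within 0.5 of the untreated mean.

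Some facts of the whole experiment bear on these values. Libraries held 29628817 to 84596899 counts, and the 2 h libraries varied most among themselves, with replicate 2, the deepest, lying nearest to the 6 h libraries on the first principal component. Without that library the 2 h calls of the members were again 3 higher and 6 lower. Of 9 dendritic cell markers Itgax averaged 1361 CPM and Cd74 3597 CPM in untreated cells, Flt3 and Zbtb46 13.3 and 18.0 CPM, and Cd209a was under 1 CPM in every library. The summed level of that list was 5055 to 5800 CPM untreated, 5291 to 5793 at 2 h and 4704 to 5127 at 6 h, most of it from Cd74 and Itgax. At 6 h Ccr7 (0.42) and Clec9a (0.46) of that list rose and Itgax (-0.34) and Dpp4 (-0.82) fell. The 8 macrophage markers summed to 3123 to 3180 CPM untreated, 3339 to 3504 at 2 h and 3254 to 3441 at 6 h, most of it from Csf1r. At 6 h 2 of them rose, Csf1r (0.22) and Mertk (0.73). The other 6 fell: Adgre1 (-0.42), Fcgr1 (-1.24), Mrc1 (-0.64), C1qa (-0.46), C1qb (-0.25) and C1qc (-0.34). The part of such shifts in the results on lysosomal genes was not tested, and in bulk RNA a change in the number of cells of one kind cannot be told apart from a change in RNA per cell.

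Promoters of the members are shown before the single genes, because the E-box is the sequence through which the TFEB family is known to act on lysosomal genes. Sequences of 250 bases before to 50 bases after the transcription start, from the RefSeq table of GRCm38.p6, were found for 28 of the 34 genes. The E-box searched was CACGTG, which reads the same on both strands, and the longer form TCACGTG was searched on both strands and always contains the first. CACGTG occurred in the windows of 9 of 28 members (32.1%, exact 95% binomial interval 15.9 to 52.4%), against 8.09% of the 27025 symbols of the table and 11.6% of the 10511 tested genes with a window. TCACGTG occurred in 8 of 28 (28.6%) against 4.29%. The 9 were Lamp1, Mcoln1, Ctsa, Ctsd, Ctsl, Lgmn, Glb1, Atp6v1a and Atp6v0d1. The members are a chosen list and no random draw of genes, so the interval is not a test against the other shares. E-boxes are already known from promoters of lysosomal genes, so a higher share in a lysosomal list is no new result. A match describes letters only and is neither a bound site nor a cause of any change.

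Stretches of 80 bases from 6 of these promoters follow, chosen to show the genes with several matches and examples of each class; they are written 5′ to 3′ on the strand of the gene, with each CACGTG in capitals. Lamp1, the major glycoprotein of the lysosomal membrane, lies at chr8:13159086-13159165 (+). Mcoln1, the calcium channel of the lysosomal membrane, lies at chr8:3500424-3500503 (+). Ctsa, the carboxypeptidase that also protects β-galactosidase, lies at chr2:164833713-164833792 (+). Ctsd, encoding the aspartic protease cathepsin D, lies at chr7:142387883-142387962 (-). Atp6v1a, the catalytic subunit of the pump, lies at chr16:44139348-44139427 (-). Ctsl lies at chr13:64370691-64370770 (-). The RefSeq start of Lamp1 is that of the GENCODE gene, and those of the other 5 lie inside it, by 62 bases in Mcoln1 and 900 in Ctsa, so the windows need not hold the promoter of every transcript counted.
Lamp1: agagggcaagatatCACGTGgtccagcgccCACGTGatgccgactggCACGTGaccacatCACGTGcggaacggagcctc
Mcoln1: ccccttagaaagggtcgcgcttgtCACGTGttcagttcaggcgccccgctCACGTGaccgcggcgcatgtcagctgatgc
Ctsa: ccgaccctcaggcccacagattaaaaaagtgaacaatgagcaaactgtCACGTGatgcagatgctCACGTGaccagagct
Ctsd: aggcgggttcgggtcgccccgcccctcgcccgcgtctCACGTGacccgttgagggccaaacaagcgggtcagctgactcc
Atp6v1a: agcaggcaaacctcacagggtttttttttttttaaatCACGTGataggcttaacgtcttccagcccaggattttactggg
Ctsl: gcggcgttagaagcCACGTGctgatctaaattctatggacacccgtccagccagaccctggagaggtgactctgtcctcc

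Lamp1 held 4 matches, whose first bases lay 61, 45, 28 and 15 bases before the start, and Mcoln1 held 2, at 71 and 45 bases before it. Ctsd also held 2, at 245 and 98 bases before the start, and its printed stretch shows only the one nearer the start. Ctsa held 2, at 12 bases before the start and at base 6 of the transcript. The match of Ctsl was the only one of the 9 genes' matches without a T in front of it on either strand. When only the 200 bases before the start were searched, 7 of 28 members (25.0%) kept CACGTG, against 6.00% of all symbols.

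**Figure D2:**
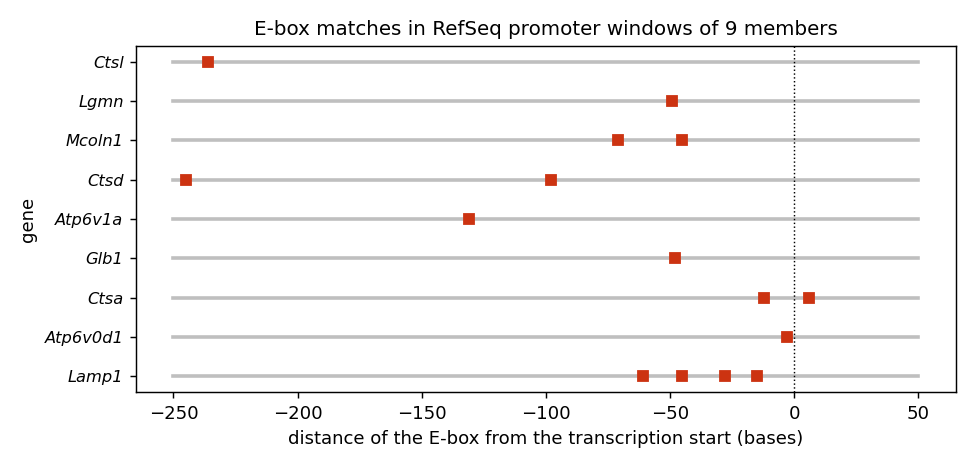
Grey lines are the promoter windows of the 9 members with a CACGTG match, from 250 bases before to 50 bases after the RefSeq start (dotted line), and red squares are the matches. Matches of Lamp1, Mcoln1, Lgmn and Glb1 lie within 75 bases before the start, and those of Ctsl and Ctsd reach the far end of the window.

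At 6 h the 9 members with an E-box match gave 7 calls higher and 0 lower, and Lamp1 and Atp6v0d1 were not called. The 19 members with a window and no match gave 6 higher and 4 lower, and the 6 members with no window in the table gave 2 and 2. The median log2 fold change was 0.19 with a match and 0.07 without one. At 2 h 2 of the 9 were higher and 0 lower (median 0.06), and of the 19 without a match 1 was higher and 4 lower (median 0.01), beside 20.2% higher and 22.6% lower among all tested genes with CACGTG. Over all tested genes with a window, those with CACGTG (1218) were called higher in 28.6% and lower in 27.8% of cases at 6 h, and those without it (9293) in 28.2% and 25.6%, with medians of 0.01 and 0.02. Scarb2 and Atp6v0d2, with the largest rises, were not among the 9: the window of Scarb2 held no CACGTG, and Atp6v0d2 had no window in the table.

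Of the 12 hydrolases, 7 rose at 6 h and 1 fell (58.3% and 8.33%), beside 26.4% and 25.7% of all tested genes. At 2 h 2 were higher and 1 was lower (16.7% and 8.33%), beside 19.3% and 19.2%. Ctsl (ENSMUSG00000021477, chr13:64359337-64370890, minus strand, GRCm38) encodes a cysteine protease that cuts the invariant chain and antigens. Its level was 910, 894 and 938 CPM in the 3 untreated libraries, then 1000, 1101 and 1061 CPM after 2 h and 1241, 1311 and 1329 CPM after 6 h. The 3 groups did not overlap at any step. The log2 fold change was 0.21 ± 0.05 at 2 h (edgeR adjusted p = 0.00539) and 0.50 ± 0.05 at 6 h (edgeR adjusted p = 4.71e-06).

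The other hydrolases that rose at 6 h did so by 0.13 to 0.30. Ctsk, encoding the collagen-degrading cathepsin K, rose by 0.30 ± 0.05 (edgeR adjusted p = 0.000448) from a low level of 43.9 ± 0.3 to 54.0 ± 2.3 CPM (SD, n = 3). Lgmn, encoding the asparaginyl endopeptidase legumain, rose by 0.25 ± 0.05, from 524 ± 12 to 621 ± 30 CPM. Ctsd rose by 0.24 ± 0.05 from 7660 to 9049 CPM; its row also lists a transcript of the predicted gene Gm49369. Man2b1, the lysosomal α-mannosidase, rose by 0.21 ± 0.05. Glb1, the lysosomal β-galactosidase, was higher by 0.15 ± 0.04 at both times, and Ctsa was higher by 0.13 ± 0.05 at 6 h (edgeR adjusted p = 0.0271). Ctsa and Glb1 encode proteins that sit in 1 complex.

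Some of these small calls rested on single libraries. The 6 h call of Ctsa was lost without untreated replicate 1 or 3 or without 6 h replicate 2 or 3 (0.11 to 0.13, edgeR adjusted p from 0.0722 to 0.114). The 6 h call of Glb1 was lost without 6 h replicate 3 (0.13, edgeR adjusted p = 0.0576). Its 2 h call was lost without untreated replicate 1 or 2 or without 2 h replicate 3 (0.11 to 0.14, edgeR adjusted p from 0.0521 to 0.0635). Reads of Ctsa may include some of Pltp, which overlaps its exons on the other strand; Pltp held 6.23% as many counts as Ctsa and its log2 fold change at 6 h was 0.44.

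Lipa, encoding the acid lipase that splits cholesteryl esters and triglycerides, was the only hydrolase that fell at 6 h. It was at 1535, 1499 and 1580 CPM without LPA, 1376, 1391 and 1590 after 2 h and 1140, 1190 and 1142 after 6 h. All 6 h libraries lay below all others, while at 2 h replicate 3 was above every untreated library. The log2 fold change was -0.08 ± 0.06 at 2 h (not called) and -0.41 ± 0.06 at 6 h (edgeR adjusted p = 7.74e-05). Without 2 h replicate 3 the 2 h value was -0.15 and passed the test (edgeR adjusted p = 0.0192).

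Gusb, the lysosomal β-glucuronidase, was lower at 2 h, at 467 ± 13 against 520 ± 8 CPM (-0.16 ± 0.05, edgeR adjusted p = 0.0176), and was not called at 6 h (-0.06 ± 0.05). That 2 h call was lost without untreated replicate 2 or 3 or 2 h replicate 1 (-0.15 to -0.14, edgeR adjusted p from 0.0506 to 0.0677). Ctsb, Ctsz and Hexa, encoding cathepsins B and Z and the α chain of β-hexosaminidase, were called in neither comparison with untreated cells. Their log2 fold changes lay between -0.07 and 0.09.

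None of the 3 soluble helper proteins was called higher at 2 h or 6 h, and 1 was lower at each time (33.3%). Of all tested genes 19.2% were lower at 2 h and 25.7% at 6 h. Psap encodes the precursor of the saposins, which present lipids to the hydrolases, and fell by 0.21 on the log2 scale at 6 h (SE 0.06, edgeR adjusted p = 0.00649). It was the most abundant member per kb of transcript and went from 18710 ± 774 to 16140 ± 331 CPM. Grn, encoding progranulin, was lower at 2 h only, at 1275 ± 37 against 1416 ± 51 CPM (-0.15 ± 0.05, edgeR adjusted p = 0.0262), and that call was lost without untreated replicate 2 (-0.12) or 2 h replicate 3 (-0.13), with no filter (edgeR adjusted p = 0.0553) and with only the 6 libraries compared (edgeR adjusted p = 0.0587). Npc2, which hands cholesterol to NPC1, had log2 fold changes of 0.09 at both times and was not called.

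Of the 9 membrane proteins 5 rose at 6 h and 0 fell (55.6% and 0.00%), beside 26.4% and 25.7% of all tested genes. Scarb2 (ENSMUSG00000029426, chr5:92441314-92506833, minus strand, GRCm38) encodes LIMP-2. It was at 138, 128 and 128 CPM without LPA, 181, 219 and 166 after 2 h and 306, 296 and 306 after 6 h. The groups did not overlap, and the 2 h libraries spread more widely than the others, with replicate 2 highest. The log2 fold change was 0.53 ± 0.08 at 2 h (edgeR adjusted p = 0.000571) and 1.20 ± 0.09 at 6 h (edgeR adjusted p = 1.12e-06), and the step from 2 h to 6 h was itself 0.68 ± 0.08.

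Laptm5, a lysosomal membrane protein of blood cells that takes part in the breakdown of antigen receptors, rose at 6 h. Its level was 1255, 1284 and 1251 CPM without LPA, 1309, 1332 and 1248 after 2 h and 1564, 1609 and 1672 after 6 h. The untreated and 2 h libraries overlapped and the 6 h libraries lay above both (0.35 ± 0.05, edgeR adjusted p = 3.85e-05). Mcoln1 rose from 51.5 ± 1.0 to 61.2 ± 1.8 CPM at 6 h (0.25 ± 0.05, edgeR adjusted p = 0.00154). Cd68, a heavily glycosylated protein used as a macrophage marker, rose from 707 ± 16 to 811 ± 27 CPM at 6 h (0.20 ± 0.05, edgeR adjusted p = 0.00366).

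Npc1, which exports cholesterol from the lysosome, was below untreated at 2 h and above it at 6 h. It was at 282, 278 and 282 CPM without LPA, 233, 263 and 237 after 2 h and 315, 330 and 335 after 6 h. No group overlapped another. The log2 fold change was -0.20 ± 0.05 at 2 h (edgeR adjusted p = 0.0083) and 0.22 ± 0.05 at 6 h (edgeR adjusted p = 0.00303), and 6 h exceeded 2 h by 0.42 ± 0.05. Its exons overlap Rmc1 on the other strand, which held 21.03% as many counts and had log2 fold changes of -0.03 and -0.12, and the libraries do not keep the strand.

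Lamp1, Lamp2, Cd63 and Gpnmb were not called by edgeR in any of the 3 comparisons. DESeq2 and limma-voom called Gpnmb higher at 6 h than at 2 h (0.11, adjusted p = 0.0183, and 0.10, adjusted p = 0.0488), and scaling by total counts only called Gpnmb and Cd63 higher at 6 h than in untreated cells (0.11 and 0.12). Lamp1 and Lamp2 make up much of the protein of the lysosomal wall, Cd63 is a tetraspanin of late endosomes, and Gpnmb is a glycoprotein abundant in cells with many lysosomes. Their log2 fold changes were between -0.03 and 0.08 against untreated cells. Lamp1, with the most E-box matches, was at 1255 ± 20 CPM untreated, 1299 ± 48 at 2 h and 1293 ± 17 at 6 h.

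The 9 V-ATPase genes split evenly at 6 h, 3 higher and 3 lower (33.3% each). All tested genes gave 26.4% and 25.7%, and those at or above the level of the lowest member 30.4% and 31.4%, near that split. At 2 h 0 were higher and 2 lower (0.00% and 22.2%), beside 19.3% and 19.2% of all tested genes. The pump has a membrane sector, V0, through which protons pass, and a cytoplasmic sector, V1, which splits ATP. Atp6v0d2 (ENSMUSG00000028238, chr4:19876841-19922605, minus strand, GRCm38) encodes a V0 subunit known from osteoclasts, macrophages and dendritic cells. It was at 535, 457 and 482 CPM without LPA, 475, 566 and 483 after 2 h and 739, 715 and 755 after 6 h. Untreated and 2 h libraries overlapped (0.05 ± 0.07, edgeR adjusted p = 0.631) and the 6 h libraries lay above both (0.58 ± 0.07, edgeR adjusted p = 3.98e-05).

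Atp6v0d1, the ubiquitous d subunit that Atp6v0d2 can replace, was at 219 ± 1 CPM untreated, 221 ± 5 at 2 h and 230 ± 10 at 6 h, and was not called (0.02 ± 0.04 and 0.07 ± 0.04). Per kb of transcript Atp6v0d2 was at 194 and Atp6v0d1 at 134 CPM per kb in untreated cells, and at 290.0 and 141 at 6 h. Because Atp6v0d2 and Ctsk are also known from osteoclasts, the 8 osteoclast markers were read beside them. At 6 h Acp5, Nfatc1 and Itgb3 rose by 0.33, 0.49 and 0.80, Ocstamp and Mmp9 fell by 1.83 and 1.10 on the log2 scale, and Oscar and Calcr were under 1 CPM in every library. Their summed level was 605 to 722 CPM untreated, 694 to 765 at 2 h and 747 to 808 at 6 h. Most of it came from Acp5 (193 CPM untreated) and Dcstamp (337 CPM), which was not called at 6 h (0.21 ± 0.14). The part of these markers in the rise of Atp6v0d2 was not tested.

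In the rest of V0, Atp6v0c, the proteolipid of the proton ring, fell at 6 h from 1229 ± 46 to 1076 ± 57 CPM (-0.19 ± 0.05, edgeR adjusted p = 0.00676). Atp6v0a1, an a subunit that helps to place the pump, was at 263, 276 and 282 CPM without LPA, 206, 248 and 232 after 2 h and 300, 304 and 318 after 6 h. It was lower at 2 h (-0.26 ± 0.06, edgeR adjusted p = 0.00538), and higher at 6 h by 0.17 ± 0.06 (edgeR adjusted p = 0.0397). The 6 h call was lost without any 1 of the 6 libraries compared (0.14 to 0.19, edgeR adjusted p from 0.0568 to 0.139). The difference between the times was larger, 0.43 ± 0.06. Atp6ap1, an accessory subunit, stayed within 0.01 of untreated at both times.

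In V1, Atp6v1b2, the B subunit of the ATP-splitting head, fell at 2 h and was still lower at 6 h. It was at 775, 786 and 786 CPM without LPA, 588, 598 and 631 after 2 h and 618, 625 and 619 after 6 h. Every treated library lay below every untreated one (-0.37 ± 0.04, edgeR adjusted p = 2.52e-05, and -0.33 ± 0.04, edgeR adjusted p = 3.23e-05). Its partner in the head, Atp6v1a, went from 653 ± 12 to 746 ± 12 CPM at 6 h (0.19 ± 0.04, edgeR adjusted p = 0.00213) and was not called at 2 h. Atp6v1h, a regulatory subunit, fell by 0.16 on the log2 scale at 6 h (SE 0.05, edgeR adjusted p = 0.0127), and Atp6v1c1, which links head and stalk, was not called against untreated cells (-0.02 and 0.10). Subunits of 1 pump thus changed in opposite directions at 6 h, also with libraries scaled by total counts only.

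Tfeb (ENSMUSG00000023990, chr17:47737030-47792419, plus strand, GRCm38) had the largest 2 h difference of the members. It was at 44.9, 44.9 and 44.0 CPM without LPA, 21.5, 26.2 and 19.0 after 2 h and 31.3, 34.5 and 33.9 after 6 h. The groups did not overlap, and the 6 h libraries lay between the other two groups. The log2 fold change was -1.00 ± 0.09 at 2 h (edgeR adjusted p = 1.05e-05) and -0.42 ± 0.09 at 6 h (edgeR adjusted p = 0.00259). Without any 1 library the 2 h value ran from -1.13 to -0.90 and was called each time. Tfeb was also the least abundant member per kb, and TFEB is also controlled by phosphorylation and location, which RNA does not measure.

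**Figure D3:**
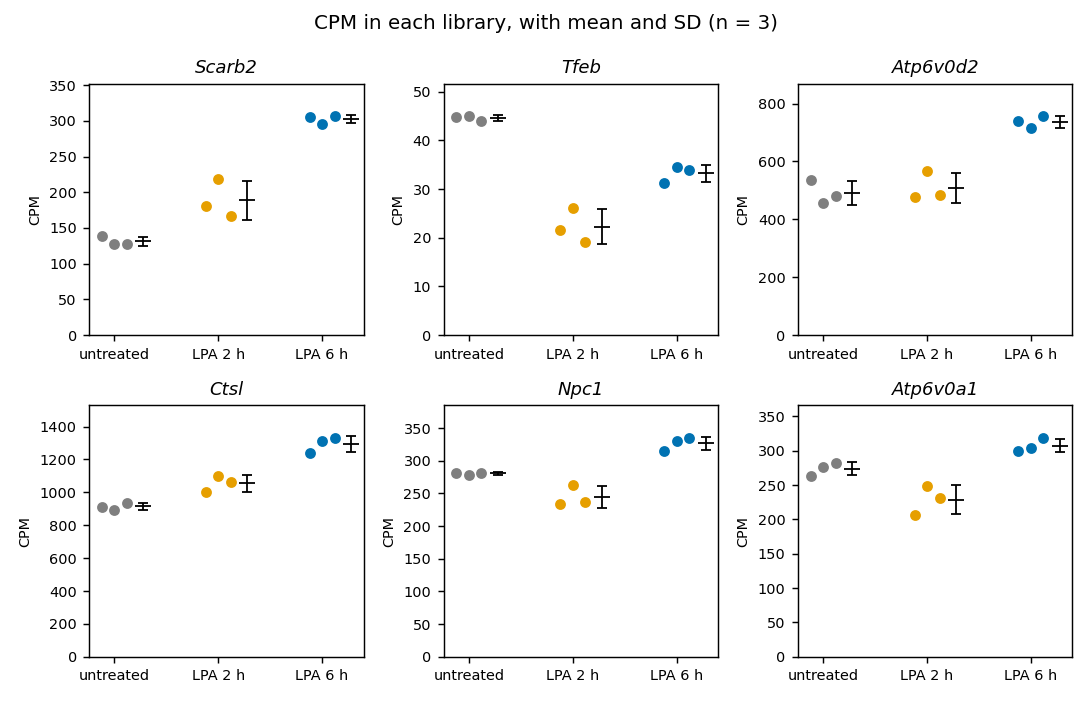
CPM of 6 genes in each library (points), with the group mean and SD beside them (bars, n = 3), on axes that start at 0. Scarb2 and Ctsl step up at 2 h and 6 h, Atp6v0d2 is higher only in the 6 h libraries, Tfeb is lowest at 2 h, and Npc1 and Atp6v0a1 lie below untreated at 2 h and above it at 6 h.

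Comparing 6 h directly with 2 h, 18 of 34 members were called (52.9%), 15 higher and 3 lower, beside 48.7% of all tested genes, 24.3% higher and 24.4% lower, and 61.6% of genes of at least the lowest member's mean CPM, 29.7% higher and 31.9% lower. Scarb2 (0.68), Tfeb (0.57), Atp6v0d2 (0.53), Atp6v0a1 (0.43) and Npc1 (0.42) rose most, and Lipa, Atp6v0c and Atp6v1h fell by 0.33, 0.20 and 0.19 on the log2 scale. This comparison shares the 2 h and 6 h libraries with the ones above, so its values are not separate evidence. Groups did not overlap for 12 members at 2 h against untreated (48.2% of all tested genes), for 26 at 6 h against untreated (63.0%), and for 23 between the times (58.9%). The calls of Ctsd (0.14), Lgmn (0.13), Cd68 (0.13) and Atp6v1c1 (0.13) between the times depended on single libraries or settings. That of Ctsd was lost without 2 h replicate 1 or 3 or 6 h replicate 2 or 3 (0.12 to 0.15), and that of Lgmn without 2 h replicate 1 or 6 h replicate 2 or 3 (0.10 to 0.13). That of Atp6v1c1 was lost without untreated replicate 3, 2 h replicate 1 or any 6 h library (0.09 to 0.14). That of Cd68 was kept only without 2 h replicate 1 or 2 (0.09 to 0.14 in the other cases). With no filter on low counts the calls of Cd68 and Atp6v1c1 were lost (edgeR adjusted p = 0.0649 and 0.0533), and with only the 6 libraries compared those of Cd68, Lgmn and Atp6v1c1 (edgeR adjusted p = 0.0771, 0.058 and 0.0605), which left 12 higher. Psap was called lower between the times (-0.16) only when 2 h replicate 2 was left out.

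Together the members took up 6.90% to 7.11% of all counts in untreated libraries, 6.72% to 6.98% at 2 h and 7.24% to 7.41% at 6 h. These are shares of raw totals, without the TMM scaling factors behind the CPM values. Those factors were 0.9905 to 0.997 in untreated and 1.019 to 1.028 in 6 h libraries, so the shares do not show a rise on the CPM scale. Most of the sum came from Psap, Gpnmb, Ctsb and Ctsd (18710, 15390, 8258 and 7660 CPM untreated). Per kb of transcript their untreated levels spanned from 7042 ± 291 CPM per kb for Psap through 4158 ± 101 for Gpnmb and 3601 ± 68 for Ctsd to 24.95 ± 0.46 for Mcoln1 and 19.4 ± 0.2 for Tfeb. Of the 33 pairs of neighbours in this order, 9 had overlapping ranges of mean ± SD. They were Ctsb with Ctsz, Cd68 with Grn above it and Lamp1 below it, Lgmn with Ctsa, Atp6v1a with Man2b1, Ctsk with Scarb2, and the run of Lamp2, Atp6ap1, Gusb and Atp6v0d2. Scarb2 was at 27.95 ± 1.3 CPM per kb in untreated cells, with Ctsk at 29.06 ± 0.23 and only Mcoln1 and Tfeb lower, and Scarb2 reached 64.4 CPM per kb at 6 h.

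**Figure D4:**
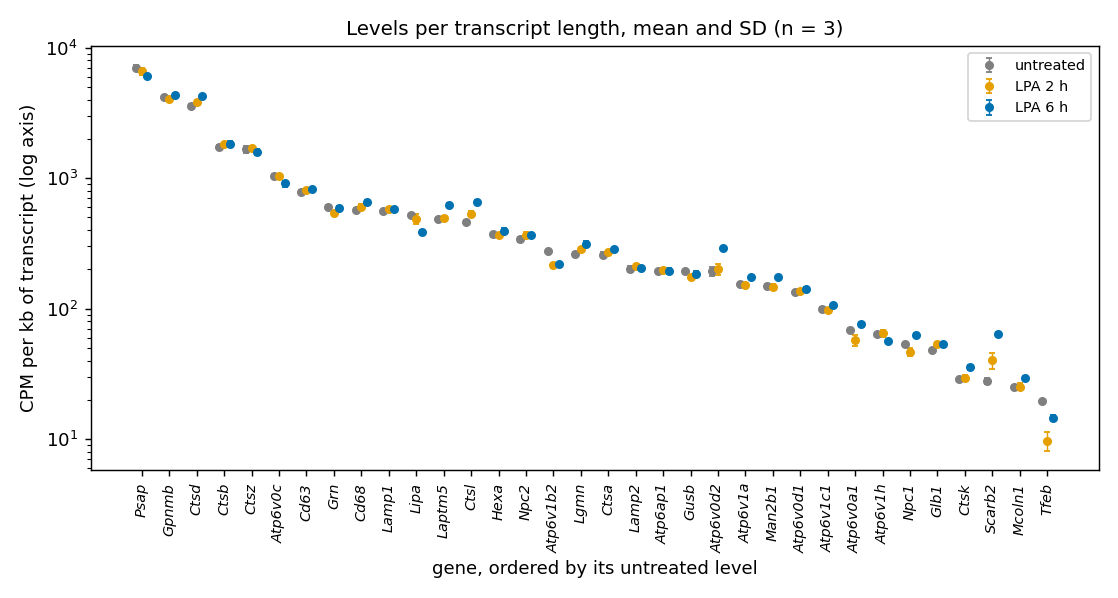
Mean CPM per kb of transcript with SD (n = 3) on a log axis, for each gene in untreated, LPA 2 h and LPA 6 h libraries, ordered by the untreated level. The order from Psap, the highest, to Tfeb, the lowest, spans from 7042 to 19.4 CPM per kb, and shifts with LPA are small beside that span. On the log axis the largest are those of Scarb2 (27.95 to 64.4 at 6 h) and Tfeb (19.4 to 9.69 at 2 h). Atp6v0d2 (193.5 to 290 at 6 h) and Ctsl (463.7 to 656.5 at 6 h) come next, and both pass the untreated levels of several neighbours.

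Other lysosomal genes were read from lists of genes that are not among the 34. Over all tested genes 19.3% were higher and 19.2% lower at 2 h, and 26.4% and 25.7% at 6 h. Of 43 further hydrolases and activators, 17 were higher and 5 lower at 6 h (39.5% and 11.6%), and 4 and 7 at 2 h (9.30% and 16.3%). Gla and Galc, which remove galactose from glycolipids, rose at 6 h by 0.44 ± 0.05 and 0.40 ± 0.04, and Acp2, a lysosomal acid phosphatase, fell by 0.46 on the log2 scale. Of 29 tested membrane proteins and transporters, 13 were higher and 5 lower at 6 h (44.8% and 17.2%), and 6 and 8 at 2 h (20.7% and 27.6%). The share called at 2 h was 48.3%, beside 22.2% (2 genes) of the 9 membrane proteins among the members. It was 38.5% over all tested genes and 49.5% over those at or above the level of the lowest member. Slc15a3, a peptide and histidine transporter of the endolysosome, rose from 419 ± 29 CPM untreated to 805 ± 128 at 2 h and 1138 ± 24 at 6 h (1.44 ± 0.10 at 6 h, edgeR adjusted p = 1.67e-06). Mcoln2, a relative of Mcoln1, fell by 1.17 on the log2 scale at 6 h (SE 0.06), from 87.2 to 38.9 CPM, and so moved opposite to Mcoln1. Tpcn2, a cation channel of the same membrane, rose by 0.81 ± 0.07.

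Of 19 tested further V-ATPase subunits and assembly factors, 5 were higher and 4 lower at 6 h. These shares of 26.3% and 21.1% were near those of all tested genes, 26.4% and 25.7%. Dmxl2, part of the complex that assembles the pump, rose by 0.57 ± 0.07, and Rogdi, its partner, fell by 0.41 on the log2 scale, as did Atp6v1g1, a stalk subunit, by 0.34. Atp6v0a4, Atp6v1b1, Atp6v1c2, Atp6v1e2 and Atp6v1g3 had too few counts to be tested. Of 14 genes that sort enzymes to the lysosome, 4 were higher and 6 lower at 6 h, and 3 and 7 at 2 h. Gnptab, which makes the mannose 6-phosphate tag, rose by 0.57 ± 0.05 and the sorting receptor Sort1 by 0.46 ± 0.05, and Vps26a, of the retromer, fell by 0.35 on the log2 scale.

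Of the 24 genes of the MiT/TFE family and of nutrient signalling at the lysosome, 7 were higher and 8 lower at 6 h (29.2% and 33.3%). The 2 h counts were 1 higher and 7 lower (4.17% and 29.2%). All tested genes gave 26.4% and 25.7% at 6 h, and 19.3% and 19.2% at 2 h. Rragd, a GTPase that brings mTORC1 to the lysosome, rose from 4.71 ± 0.18 to 13.0 ± 1.5 CPM at 6 h (1.46 ± 0.16, edgeR adjusted p = 2.35e-05). Ppp3ca and Ppp3cb, catalytic chains of calcineurin, the phosphatase that acts on TFEB, fell by 0.46 and 0.49 on the log2 scale at 6 h. The relatives of Tfeb are named here after their values were seen. Tfe3 was lower by 0.37 on the log2 scale at 2 h and by 0.28 at 6 h, with log2 fold changes of -0.37 ± 0.05 and -0.28 ± 0.05, and those of Tfec were -0.25 ± 0.05 and -0.29 ± 0.06, all called. Mitf gave -0.33 ± 0.11 at 2 h (edgeR adjusted p = 0.037) and -0.71 ± 0.11 at 6 h (edgeR adjusted p = 0.000521). Its 2 h call was lost without any untreated library, without 2 h replicate 1 or 2 or without 6 h replicate 2 (-0.34 to -0.25, edgeR adjusted p from 0.0552 to 0.154).

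Autophagy genes, whose products deliver cargo to the lysosome, were mostly higher: 16 of 31 were higher and 1 lower at 2 h (51.6% and 3.23%). By 6 h 21 were higher and 2 lower (67.7% and 6.45%). All tested genes gave 19.3% and 19.2% at 2 h, and 26.4% and 25.7% at 6 h. The median log2 fold changes were 0.16 and 0.37, beside -0.00 and 0.01 over all tested genes. Gabarapl1 and Map1lc3b, which encode proteins of the autophagosome membrane, rose at 6 h by 0.71 ± 0.06 and 0.50 ± 0.05, and Atg12, part of the machinery that attaches them, by 0.49 ± 0.05. Of 6 cathepsin inhibitors 2 were higher and 2 lower at 6 h (33.3% each). Serpinb6a rose by 0.69 ± 0.06, Cstb, an inhibitor of cathepsins B, H and L, fell by 0.22 on the log2 scale, and Serpina3g fell by 2.00 from a level of 4.47 CPM.

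**Figure D5:**
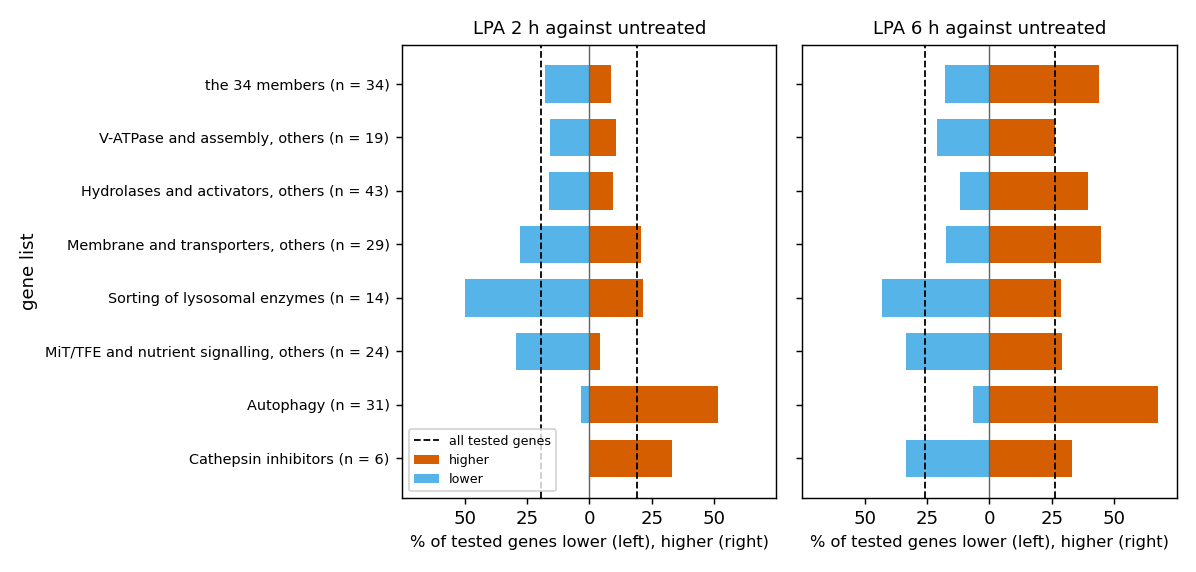
Bars give the percentage of tested genes of each list called higher (right) and lower (left) in 2 comparisons that share the untreated libraries, with the number of tested genes in brackets, and dashed lines give the same for all tested genes. At 6 h the members, the further hydrolases and the further membrane proteins extend to the right past the line at 26.4%, at 44.1%, 39.5% and 44.8%, and autophagy genes reach 67.7%.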

How the data were processed

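The authors deposited 1 table of estimated counts for 9 non-stranded mRNA-seq libraries, 3 per group, as whole numbers without depth scaling. The submitters' processing notes name RSEM (version 1.2.3), DESeq2 and the build mm10; the aligner and the annotation release were not given in the sources used here. Rows list Ensembl transcripts, which were matched to GENCODE M21 (37776 of 38887 rows to 1 gene, with 98.46% of counts; 935 rows to none, with 0.14%). Totals were 29628817 to 84596899 counts. No 2 replicates were the same library (chi-square per degree of freedom 7.2 or more).

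The filter was filterByExpr (at least 10 counts, 15 in total), the scaling TMM; counts were fitted with edgeR 4.0.16 (R 4.3.3; glmQLFit, robust, and glmQLFTest) over all 9 libraries with group means only, and 14363 genes were adjusted by Benjamini-Hochberg at 0.05. The test was also run on simulated counts with the same spread for every gene. In them only the 6 h group was changed, by more than most members changed here, so that run does not bear on the small member calls. SE is the log2 fold change over the square root of F, SD is over 3 libraries, and CPM per kb uses the length of the principal transcript in the row. Deviations of same-numbered libraries correlated weakly, at 0.14 to 0.18 for 6 h against untreated and 0.09 to 0.18 for 2 h against untreated. Between the times, 6 h replicate 2 correlated at 0.03 with 2 h replicate 2 and best with 2 h replicate 3. Whether the numbers pair the libraries is therefore not settled, and the replicate block was kept as an alternative.

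The 34 members and all lists were chosen with earlier results of these data known. Values in every library are given for members called with at least 0.5 log2 in any comparison; Npc1, Atp6v0a1, Atp6v1b2, Lipa and Laptm5 were added after their values were seen. Of each further list the 3 genes with the smallest p at 6 h are named. Alternatives were other scalings, no filter or a stricter filter, DESeq2 1.42.0, limma-voom (limma 3.58.1), a replicate block, summed rows, only the 6 libraries compared, and each library left out. Promoters came from RefSeq, and protein sequences were not used here.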

Additional observations from a re-analysis of the deposited data

Results flagged for a closer look

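For 18 of the 34 members the effect of LPA at 6 h differed from the 2 h effect when 6 h was tested against 2 h with edgeR. Both effects are taken against the same untreated libraries, so the difference is that between the treated groups. For 15 members the 6 h effect was the higher one. Among hydrolases the log2 difference was 0.30 for Ctsl, 0.28 for Ctsk, 0.24 for Man2b1, 0.14 for Ctsd and 0.13 for Lgmn, and -0.33 for Lipa. Among membrane proteins it was 0.68 for Scarb2, 0.42 for Npc1, 0.32 for Laptm5, 0.23 for Mcoln1 and 0.13 for Cd68. Among pump subunits it was 0.53 for Atp6v0d2, 0.43 for Atp6v0a1, 0.23 for Atp6v1a, 0.13 for Atp6v1c1, -0.20 for Atp6v0c and -0.19 for Atp6v1h, and for Tfeb it was 0.57.

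Genes named from the further lists that also passed this test follow. Sqstm1, described further below, was left out of this list and of the fits with changed settings. They were named for their p at 6 h or after their values were seen, so their number says nothing about the lists. In the list of pump subunits and assembly factors the differences were 0.33 for Dmxl2, -0.28 for Atp6v1g1 and -0.19 for Rogdi, and in that of hydrolases 0.24 for Gla and -0.26 for Acp2. Among transporters and channels they were 0.76 for Slc36a1, 0.69 for Mfsd12, 0.50 for Slc15a3, 0.38 for Tpcn2 and -1.08 for Mcoln2. Among sorting genes they were 0.49 for Gnptab, 0.23 for Sort1 and -0.16 for Vps26a. In the MiT/TFE and nutrient list they were 1.05 for Rragd, 0.62 for Flcn, -0.37 for Mitf, -0.44 for Ppp3ca and -0.37 for Ppp3cb. Among autophagy genes they were 1.12 for Plekhm1, 0.27 for Gabarapl1, 0.17 for Atg12 and 0.12 for Map1lc3b, and among cathepsin inhibitors 0.30 for Serpinb6a, -0.27 for Cstb and -1.58 for Serpina3g. The value of Map1lc3b lost its call without any library but 2 h replicate 2 (0.08 to 0.13), and that of Mitf without 6 h replicate 2 (-0.36) or 3 (-0.32); without 2 h replicate 3 the value of Mitf was -0.22. Its call was also lost with the replicate block (edgeR adjusted p = 0.0502) and with no filter (edgeR adjusted p = 0.0534). The call of Rogdi was lost without 2 h replicate 1 or 6 h replicate 1 or 3 (-0.18 to -0.15), and that of Vps26a without 6 h replicate 2 (-0.15). Scaling by total counts only also ended the calls of Rogdi (-0.13, edgeR adjusted p = 0.0617) and Vps26a (-0.11, edgeR adjusted p = 0.0805). That of Map1lc3b was also lost with upper quartile scaling, no filter or only the 6 libraries compared (edgeR adjusted p = 0.0522, 0.0751 and 0.0833).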

How the results depend on the processing

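No member reversed its direction under the alternatives while called, and member counts stayed within 1.5 times. With 1 library left out, genes called ran from 4352 to 5580 at 2 h, 6226 to 7896 at 6 h and 5767 to 7425 between the times; members called higher ran from 2 to 3, 12 to 15 and 11 to 15, and lower from 4 to 6, 6 in every case, and 3 to 4. Without untreated replicate 2 the 2 h calls of Grn, Gusb and Glb1 were lost, leaving 2 higher and 4 lower. Scaling by total counts only gave 21 members higher at 6 h, adding Ctsb, Hexa, Atp6v0d1, Atp6v1c1, Gpnmb and Cd63, and moved the median log2 fold change of all genes by 0.039. It also gave 21 between the times, with a shift of 0.053. With the replicate block 6135, 8036 and 7588 genes were called; the block changed no member call at 6 h against untreated (15 higher, 6 lower), added Lgmn at 2 h (4 higher) and Hexa between the times (16 higher). The block ended the calls of Mitf at 2 h (edgeR adjusted p = 0.0715) and between the times (edgeR adjusted p = 0.0502). DESeq2 added Ctsd at 2 h and Gpnmb and Grn between the times, and limma-voom added Gpnmb. No filter lost Grn at 2 h and Cd68 and Atp6v1c1 between the times; only the 6 libraries compared lost these and Lgmn between the times, and added Atp6v1c1 at 6 h. Same-numbered libraries correlated best with each other in both comparisons with untreated, but between the times 6 h replicate 2 correlated best with 2 h replicate 3. The smallest difference called among members was 0.13 log2, so a smaller value does not show that a gene was unchanged.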

Other observations

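Some lysosomal genes outside the 34 were low at 2 h and back near the untreated level at 6 h; they are named after their values were seen. Plekhm1, an adaptor for the fusion of autophagosomes with lysosomes, was at 149, 154 and 153 CPM without LPA, 65.9, 101 and 59.6 after 2 h and 162, 164 and 169 after 6 h. Its log2 fold change was -1.01 ± 0.18 at 2 h (edgeR adjusted p = 0.0033) and 0.12 ± 0.18 at 6 h (not called). With only the 6 libraries compared the 6 h value was 0.11 ± 0.04 and was called higher (edgeR adjusted p = 0.0156). It was also called without 2 h replicate 2 (0.11 ± 0.04, edgeR adjusted p = 0.0367). Slc36a1, an amino acid transporter of the lysosomal membrane, was at 140, 138 and 145 CPM without LPA, 72.9, 94.8 and 76.7 after 2 h and 138, 136 and 141 after 6 h (-0.79 ± 0.08 at 2 h, edgeR adjusted p = 2.05e-05). Mfsd12, a cysteine transporter of lysosomes and melanosomes, was lower at 2 h by 0.60 on the log2 scale, with a log2 fold change of -0.60 ± 0.09, and was not called at 6 h (0.09 ± 0.09). For all 3 genes 2 h replicate 2 was the highest of the 2 h libraries, as it was for Tfeb, Npc1 and Atp6v0a1.

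Ulk1, the kinase that starts autophagy, was higher at both times (0.56 ± 0.06 and 0.62 ± 0.06). Flcn, which restrains the TFEB family in fed cells, was not called at 2 h (-0.06 ± 0.10) and rose at 6 h by 0.57 ± 0.10 (edgeR adjusted p = 0.000765). Without 2 h replicate 2 its 2 h value was -0.19 and passed the test (edgeR adjusted p = 0.0351). Sqstm1, an autophagy receptor also named after its values were seen, was higher at 2 h (0.26 ± 0.07) and lower at 6 h (-0.30 ± 0.07). Its 6 h value was opposite in sign to those of Map1lc3b and Gabarapl1.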
